A study of Mus musculus with 4 samples.

Results

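Genes for the SR proteins, the hnRNPs and the subunits of the spliceosomal snRNPs were followed in RPS2 eCLIP and total RNA libraries of mouse primary cortical neurons. Members were the protein-coding genes whose GENCODE M21 symbol begins with Srsf, Hnrnp, Sf3a, Sf3b, Snrp, Snrnp, Prpf or U2af followed by the subunit letter or number, together with *Tra2a* and *Tra2b*. This gave 76 of the 31053 genes in the tables. They comprised 13 SR genes (*Srsf* and *Tra2*), 20 hnRNP genes, 9 genes of the SF3a and SF3b complexes, 3 *U2af* genes, 11 *Snrp* genes, 7 *Snrnp* genes and 13 *Prpf* genes. Of these, 75 passed the filter on low counts and were tested among 12336 genes. The exception was *U2af1l4*, a relative of the small U2AF subunit, with 8 and 1 counts in the IP libraries and 0 in both total RNA libraries.

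In eCLIP, RNA is crosslinked to protein in the cell and the protein is then pulled down with the RNA attached. The antibody here was against endogenous RPS2, one of the proteins of the small subunit of the ribosome, so the ratio of IP to total RNA compares the RPS2-bound pool of an mRNA with its overall level. The series was made to benchmark an editing-based reporter of ribosome occupancy against this assay. All 4 libraries came from wild-type (WT) neurons cultured from embryonic cortices, 2 labelled RPS2 eCLIP IP and 2 labelled total RNA, and total RNA was set aside ahead of the pulldown. The IP libraries carry the label rRNA depletion and the total RNA libraries the label no treatment, so an effect of that step and the pulldown cannot be told apart. No label says that replicates 1 and 2 were separate cultures. The main test compared IP with total RNA within each replicate number. Its p-values measure the spread between the ratios of these 2 pairs of libraries only, not the spread between replicates. That spread of ratios was estimated over all genes together, so a gene's own spread does not enter its p or SE.

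Splicing removes introns in the nucleus. The U1 snRNP recognises the 5′ splice site, U2AF and the U2 snRNP with its SF3a and SF3b complexes recognise the 3′ splice site and branch point, and the tri-snRNP then joins and is rearranged into the active spliceosome. SR proteins mostly promote and hnRNPs often repress the use of nearby exons. Many SR and hnRNP genes limit their own output by splicing their transcripts into forms that are retained in the nucleus or removed by nonsense-mediated decay (NMD).

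Library totals ran from 4899718 to 16460545 counts. A single gene, *Gm42418*, took 15.3% to 42.6% of them. Summed levels of 8 neuronal markers were 4394 to 4499 CPM (counts divided by the effective library size and put on a common scale) in IP and 4064 to 4591 CPM in total RNA. The sum of 5 astrocyte markers was 1621 and 1367 CPM in the IP and total RNA libraries of replicate 1, against 452 and 424 CPM in those of replicate 2, and none of the 5 was at 0 in any library. Microglial markers summed to 2.96 to 25.8 CPM and were likewise higher in replicate 1, and 4 of the 5 were at 0 in at least 1 library. Of 3 endothelial markers, *Cldn5* was at 0 in every library. *Pecam1* had 5 and 3 reads in IP and 1 and 3 in total RNA, and *Flt1* 17 and 5 in IP and 5 and 7 in total RNA. In bulk libraries a lower share of a cell type and less RNA per cell cannot be told apart.

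Splicing factor mRNAs were present in RPS2 IP at close to their share of total RNA. With *Gm42418* left out of the totals, the 76 genes took 0.503% of IP counts in replicate 1, with a 95% Wilson interval of 0.498 to 0.507. The share was 0.558% in replicate 2, between 0.552 and 0.563 by the same method. Total RNA gave 0.479% (0.471 to 0.487) and 0.558% (0.551 to 0.565), and the intervals cover counting error only. The replicate 1 libraries were lower than the replicate 2 libraries in both groups, and the groups overlapped. The hnRNP genes took the largest part, 0.199% and 0.195% in IP and 0.184% and 0.192% in total RNA.

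Per exonic length, levels in total RNA spanned more than 2 orders of magnitude. *Sf3b2*, a subunit of SF3b in the U2 snRNP, was at 65.7 and 67.8 CPM per kilobase in total RNA. The hnRNP gene *Hnrnpa0* was at 69.3 and 51.6, and *Prpf8*, the protein at the centre of the spliceosome, was at 48.6 and 70.4. The ranges of these 3 genes overlapped, so their order was not resolved. *Snrnp200*, the helicase that unwinds the U4/U6 pair, followed at 28.6 and 34.6, and *Snrpb*, a protein of the Sm ring that encircles most snRNAs, at 25.7 and 27.5. Neither of these reached the level of the first 3 in any library, and *Snrnp200* was above *Snrpb* in each. Among SR genes the highest mean was that of *Srsf4*, at 13.6 CPM per kilobase, and *Srsf2* was also at 13.6. At the low end were *Srsf10* (0.724), *Snrnp48* (0.526) and *Prpf39* (0.243).

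**Figure D1:**
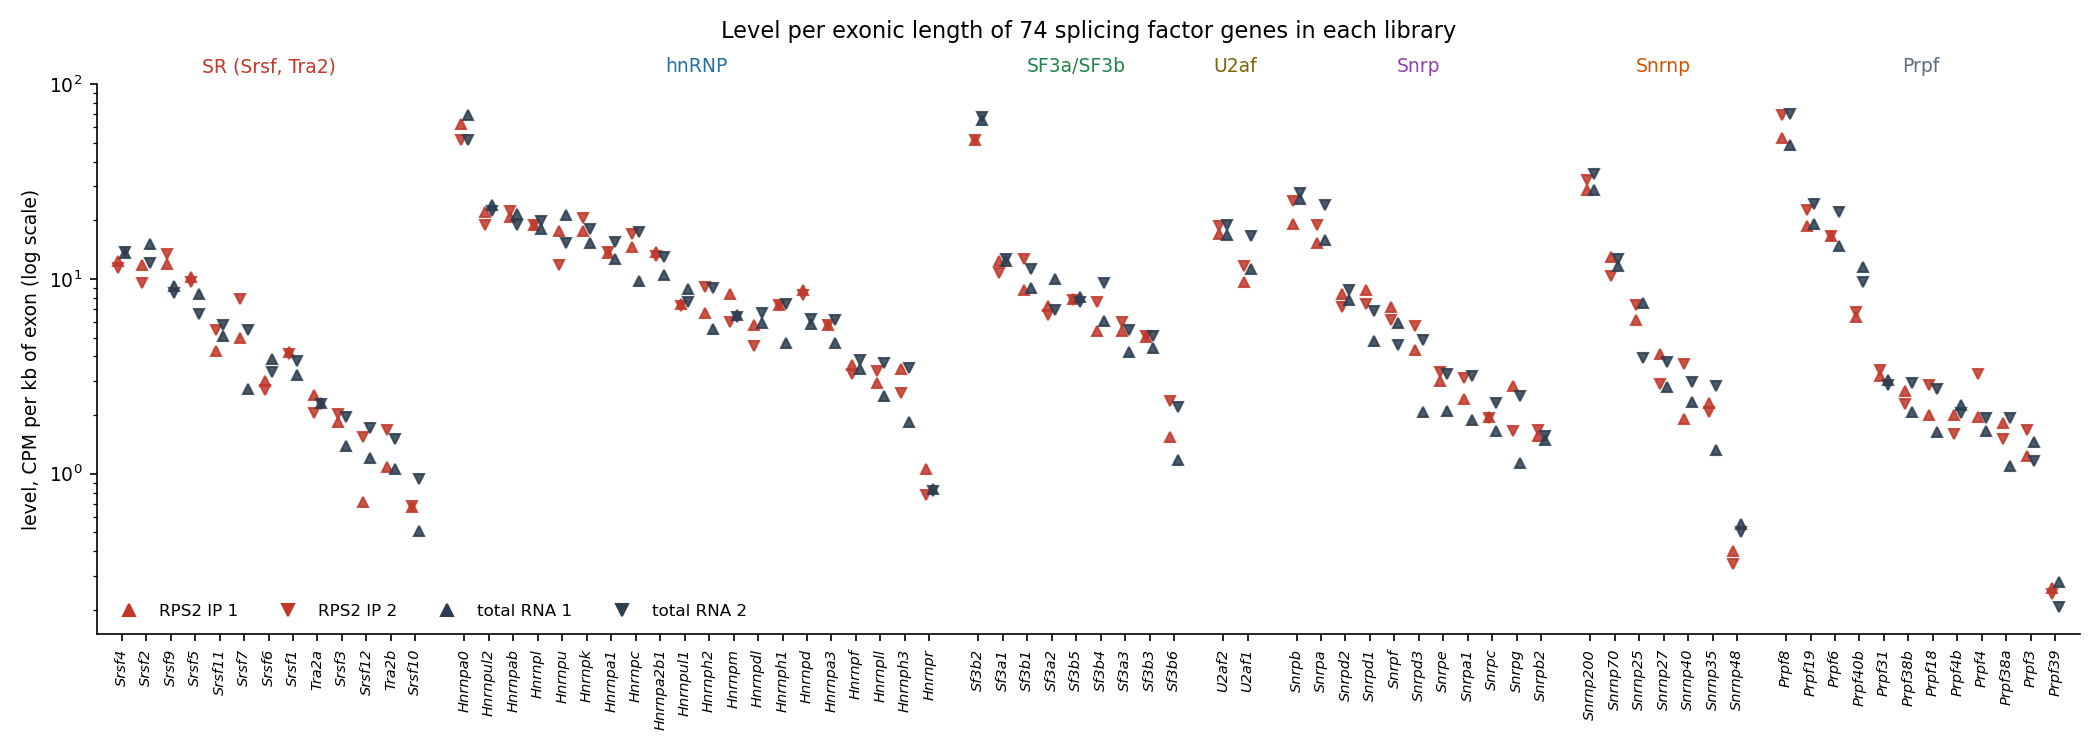
Level of 74 splicing factor genes in each library, as CPM per kilobase of exon on a log axis, grouped by family and ordered by the mean in total RNA. Red marks are RPS2 IP, dark marks are total RNA, and upward and downward triangles are replicates 1 and 2. *Sf3b2*, *Hnrnpa0* and *Prpf8* stand above the rest, and the IP and total RNA marks of most genes lie close together.

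The quasi-likelihood test of edgeR, with the replicate number as a block, called 5 of the 75 genes higher in IP at an adjusted p under 0.05. That is 6.67%, against 6.63% of all genes tested. It called 3 lower, or 4% against 7.55% of all genes. In either direction the members' 10.7% compared with 14.2% of all genes. The median log2 ratio of IP to total RNA was 0.05 over the members (0.10 in pair 1 and −0.08 in pair 2) and 0.01 over all genes. Ratios were also narrower, with an SD of 0.261 against 0.420 (log2), and 2 members passed 1.5-fold (2.67%) where 11.2% of all genes did. Neither share was tested against the background. The SDs were not compared at like depth either. Over all genes the median SE was 0.118 with at least 100 counts in every library and 0.286 with fewer.

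The calls rest on the block. Without it, the same test called 0 members and 0 of all genes in either direction, and 2 members had an unadjusted p under 0.05 (2.83% of all genes). In simulated data the fit without the block recovered 0 of 100 genes changed 2-fold, so its 0 calls do not show equal levels. With the block, 14 members had an unadjusted p under 0.05 (18.7%, against 26.1% of all genes). Pairs gave the same sign for 42 members, or 56.0%, where 66.5% of all genes did so. IP was higher in both pairs for 21 (28.0%, background 34.3%) and lower in both for 21 (28.0%, background 32.2%). Both IP libraries lay above both total RNA libraries for 10 members (13.3%, background 16.9%) and below both for 12 (16.0%, background 14.9%). With 2 libraries a group, an exact permutation test of a single gene cannot go below p = 0.33, two-sided.

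**Figure D2:**
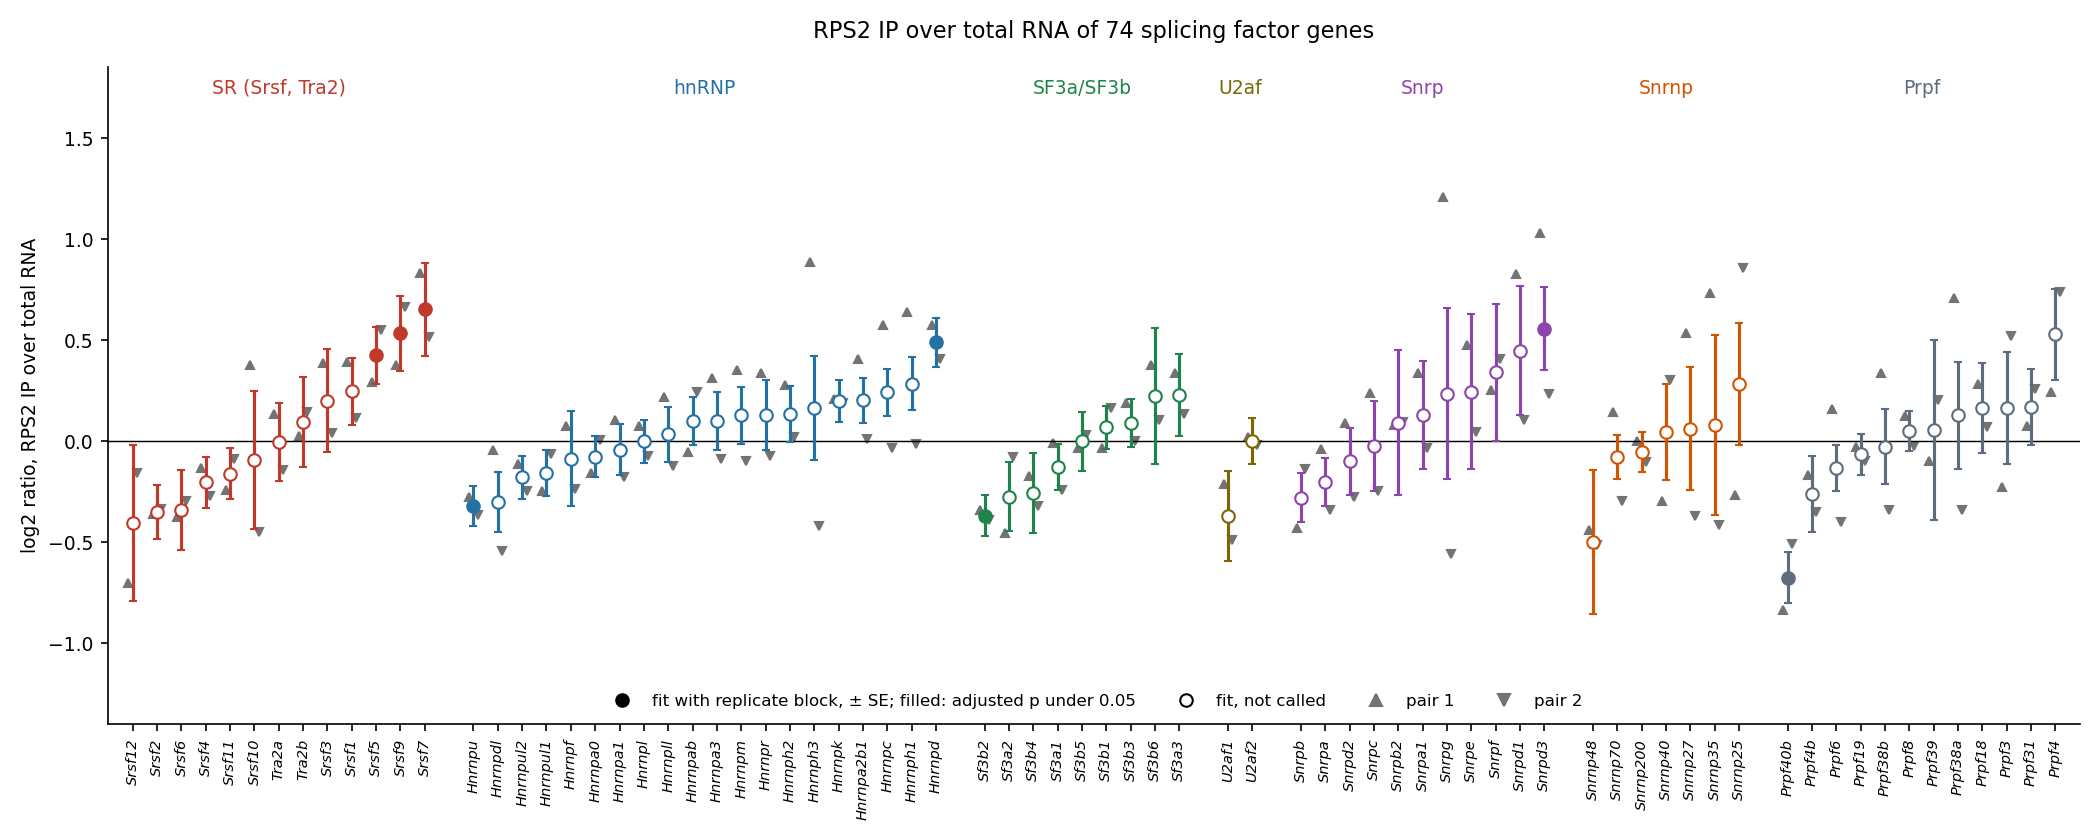
Log2 ratio of RPS2 IP to total RNA for 74 splicing factor genes, by family. Circles with bars are the fitted ratio ± SE, filled where the adjusted p was under 0.05, and grey triangles are the ratios within pair 1 (upward) and pair 2 (downward). The 5 filled circles above 0 are *Srsf7*, *Srsf9*, *Srsf5*, *Hnrnpd* and *Snrpd3*, and the 3 below are *Prpf40b*, *Sf3b2* and *Hnrnpu*.

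SR genes were spread on both sides of 0. Of 13, 3 were called higher (23.1%, against 6.63% of all genes) and 0 lower (against 7.55%). The median was −0.01, and the SD of their ratios, 0.348, was the widest of the 7 families but under the 0.420 of all genes. The pairs gave the same sign for 11 of the 13 (84.6%, against 66.5% of all genes). *Srsf5*, which binds purine-rich exonic enhancers, was at 40.7 and 38.6 CPM in IP and 33.2 and 26.3 CPM in total RNA. Both IP values lay above both total RNA values, and the log2 ratio was 0.42 ± 0.14 (SE, adjusted p = 0.021). It was 0.26 without total RNA replicate 2, in a fit without the block. Every fit with 1 library left out dropped the block, so such values here and below also carry the difference between replicates 1 and 2. *Srsf9* was at 19.7 and 22.3 CPM in IP against 15.1 and 14 CPM. Its groups did not overlap either, with a log2 ratio of 0.53 ± 0.18 (adjusted p = 0.030).

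*Srsf7*, an SR protein that also serves as an adaptor for mRNA export, had the highest log2 ratio of the 75 genes, 0.65 ± 0.23 (adjusted p = 0.034). Its levels were 11.3 and 18 CPM in IP and 6.24 and 12.5 CPM in total RNA. The groups overlapped, since IP replicate 1 was below total RNA replicate 2, but IP was higher within each pair (0.83 and 0.52). The total RNA value of replicate 1 came from 28 reads. Without the block, the ratio was 0.22 leaving out total RNA replicate 1, 0.25 for IP replicate 2 and 1.22 for total RNA replicate 2.

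The IP values of *Srsf2*, *Srsf4* and *Srsf6* lay below total RNA in all 4 cross comparisons without passing the test. That is 3 of 13 SR genes (23.1%, against 14.9% of all genes). For another 3, *Srsf1*, *Srsf5* and *Srsf9*, both IP values lay above both total RNA values (23.1%, against 16.9%). *Srsf2*, the classical SC35 protein, was at 34.7 and 28.2 CPM in IP and 44.5 and 35.7 CPM in total RNA, a log2 ratio of −0.35 ± 0.14 (adjusted p = 0.064). *Srsf6* was at 14.4 and 12.9 against 18.7 and 15.9 CPM (−0.34 ± 0.20, adjusted p = 0.269). *Srsf4* was at 44.0 and 40.3 against 48.3 and 48.7 CPM (−0.20 ± 0.12, adjusted p = 0.301). The lowest ratio in the family was that of *Srsf12*, −0.41 ± 0.38 (adjusted p = 0.550), from 17 to 54 reads a library. *Srsf1* was above total RNA in both IP libraries, with 24.0 and 23.5 against 18.3 and 21.7 CPM (0.25 ± 0.16, adjusted p = 0.353). *Tra2a* and *Tra2b*, which activate exons rich in GAA repeats, had ratios of −0.01 and 0.09.

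Of 20 hnRNP genes, 1 was called higher (5%, against 6.63% of all genes) and 1 lower (5%, against 7.55%). The median log2 ratio was 0.10. That median was 0.21 in pair 1 and −0.07 in pair 2. The pairs gave the same sign for 8 of the 20 (40%, against 66.5% of all genes). *Hnrnpd*, also known as AUF1, which binds AU-rich elements and governs mRNA decay, was at 64.3 and 60.8 CPM in IP and 43.0 and 45.9 CPM in total RNA. Both IP libraries were well above both total RNA libraries, and the log2 ratio was 0.49 ± 0.12 (adjusted p = 0.0011), the smallest adjusted p among the members called higher. It was close in the pairs, at 0.58 and 0.41.

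*Hnrnpu*, a nuclear scaffold protein that binds chromatin and pre-mRNA, was at 203 and 137 CPM in IP and 246 and 177 CPM in total RNA. The groups overlapped because both replicate 1 libraries were high. Within the pairs IP was lower by a similar amount, −0.28 and −0.37, and the fitted ratio was −0.32 ± 0.10 (adjusted p = 0.015). Fits with 1 library left out had no block. They gave −0.63 without IP replicate 1, −0.06 for IP replicate 2, −0.06 for total RNA replicate 1 and −0.53 for total RNA replicate 2. Its relatives *Hnrnpul1* and *Hnrnpul2* were lower in both IP libraries than in both total RNA libraries, with ratios of −0.16 and −0.18 that did not pass the test. *Hnrnpdl*, the closest relative of *Hnrnpd*, was at 27.9 and 21.9 CPM in IP and 28.7 and 32.1 CPM in total RNA (−0.30 ± 0.15, adjusted p = 0.177).

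Several abundant hnRNP mRNAs had fitted ratios near 0, with small SEs that follow from depth and the shared spread. The log2 ratio was 0.00 ± 0.11 for *Hnrnpl*, −0.04 ± 0.13 for *Hnrnpa1* and −0.08 ± 0.10 for *Hnrnpa0*. In pairs 1 and 2 it was 0.08 and −0.07, 0.10 and −0.17, and −0.16 and 0.01, in the same order. Others were far from 0 in pair 1 alone, none of them called. The ratios in pairs 1 and 2 were 0.58 and −0.03 for *Hnrnpc*, 0.64 and −0.01 for *Hnrnph1*, and 0.41 and 0.01 for *Hnrnpa2b1*. In each of these the total RNA value of replicate 1 was the lowest of the 4, for example 42.1 CPM for *Hnrnpc* beside 62.8, 73.2 and 74.96 CPM.

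**Figure D3:**
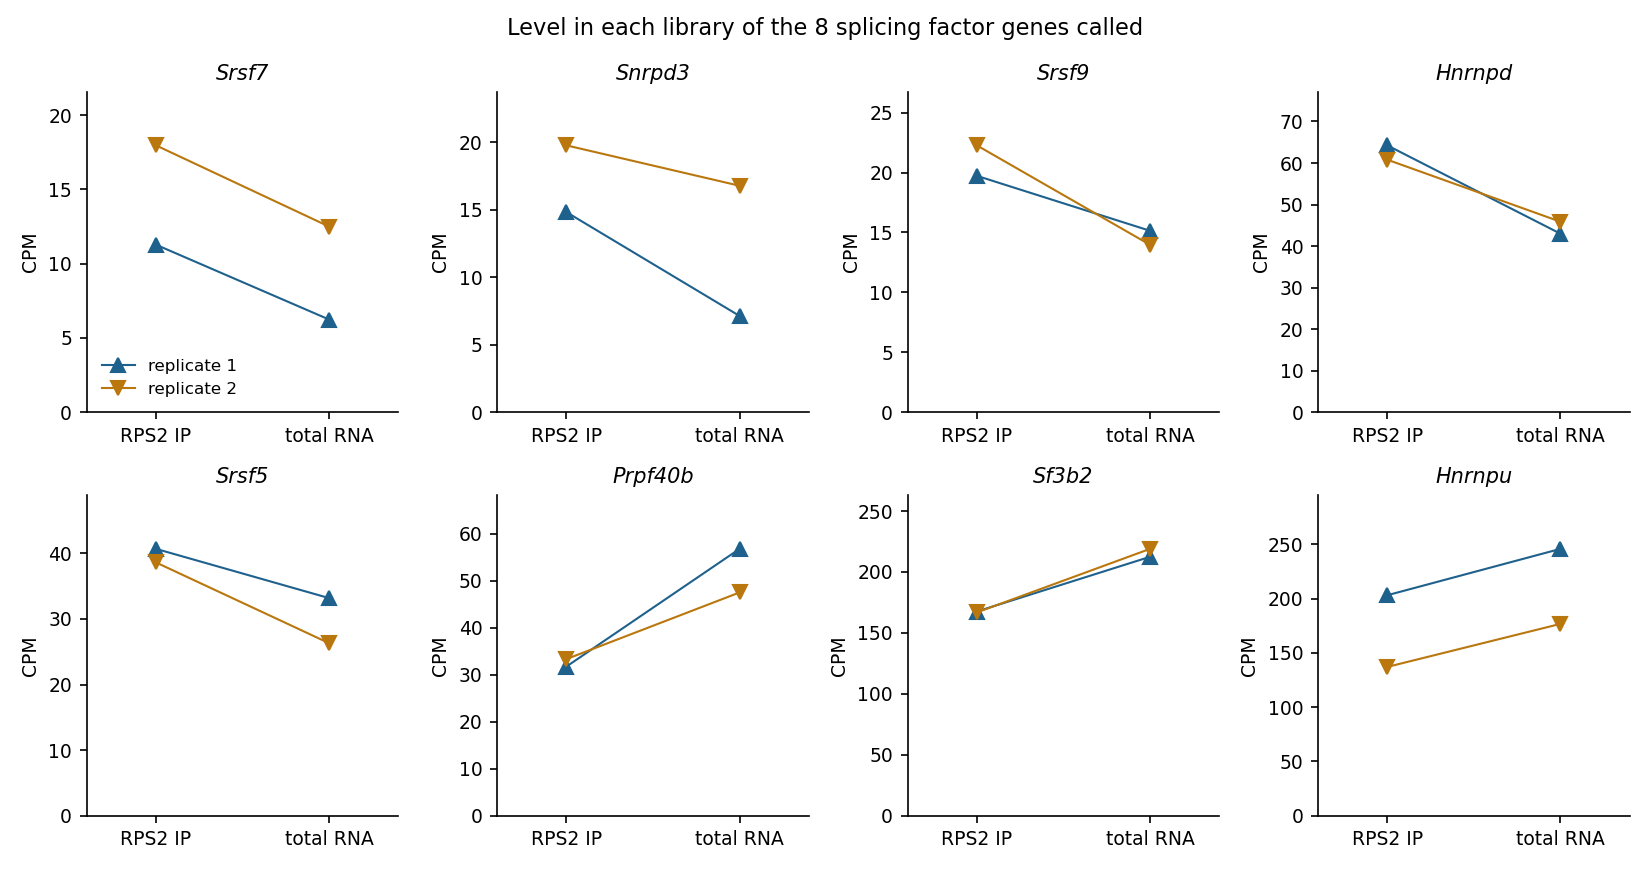
Level in CPM, on axes from 0, of the 8 splicing factor genes called by the test, in RPS2 IP and total RNA. Upward triangles are replicate 1, downward triangles are replicate 2, and lines join the libraries of a replicate number. IP is higher in both pairs in the first 5 panels and lower in both in the last 3, while *Srsf7*, *Snrpd3* and *Hnrnpu* overlap between groups.

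Among the 9 genes of SF3a and SF3b, which hold the U2 snRNP at the branch point, 1 was called lower (11.1%, all genes 7.55%). Called higher were 0 (all genes 6.63%), and the median was −0.00. *Sf3b2* was at 168 and 167 CPM in IP and 212 and 219 CPM in total RNA. The 2 libraries of each group were nearly equal and the groups were clearly apart, with a log2 ratio of −0.37 ± 0.10 (adjusted p = 0.0037). *Sf3b1*, the large scaffold of the same complex, was at 99.96 and 143 CPM in IP and 102 and 128 CPM in total RNA. Its groups overlapped and its ratio was 0.07 ± 0.11 (adjusted p = 0.734). *Sf3a1* was below total RNA in both IP libraries by a smaller margin, −0.13 ± 0.11 (adjusted p = 0.514). The highest ratio was that of *Sf3a3*, 0.23 ± 0.20 (adjusted p = 0.512). Over both complexes the ratios ran from −0.37 to 0.23, and differences between subunits were not tested.

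*Sf3b3* was 1 of 2 members with an annotated small RNA inside the exons that were counted. It holds 2 snoRNAs on its own strand, *Gm22193* (mm10 chr8:110842383-110842458) and *Snord111* (chr8:110838528-110838616), whose first 30 bases are shown, since reads from them would count toward the gene. Capitals mark TGATGA, a match to the C box of box C/D snoRNAs, at base 11 of both.
Gm22193: cagcctgaagTGATGAttcacaatcatgtc
Snord111: cagcctgaaaTGATGAccatttaattcatg
*Sf3b3* was at 55.1 and 55.8 CPM in IP and 48.3 and 55.7 CPM in total RNA (0.09 ± 0.12, adjusted p = 0.687), and was not lower in IP. The other was *Hnrnpa3*, with the annotated miRNA *Gm24574* at its first exon (chr2:75659244-75659317) and a ratio of 0.10 ± 0.14 (adjusted p = 0.718).

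The 2 tested U2AF genes, whose products read the polypyrimidine tract and the AG of the 3′ splice site, were not called. *U2af2*, the large subunit, was at 70.0 and 76.5 CPM in IP and 69.0 and 77.4 CPM in total RNA, a ratio of 0.00 ± 0.11 (adjusted p = 0.998), with 14.7% of its 50-base windows shared with genes elsewhere. *U2af1*, the small subunit, was at 9.40 and 11.4 CPM against 10.9 and 16.1 CPM (−0.37 ± 0.22, adjusted p = 0.297). Of its windows, 21.7% also occur in transcripts of other genes, and reads that aligned to several loci were not counted.

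The *Snrp* genes, which encode the Sm ring and the small proteins of the U1 and U2 snRNPs, had the highest family median, 0.13 (0.25 in pair 1 and −0.03 in pair 2). Of the 11, 1 was called higher (9.09%, against 6.63% of all genes) and 0 lower (against 7.55%). *Snrpd3* was the gene called, at 14.8 and 19.8 CPM in IP and 7.13 and 16.8 CPM in total RNA (0.56 ± 0.21, adjusted p = 0.046). The groups overlapped, and the pairs were far apart at 1.03 and 0.23. Without total RNA replicate 1 the ratio was 0.04, with IP replicate 2 left out 0.29, and without total RNA replicate 2 1.27. The other Sm genes were not called. *Snrpd1* had a ratio of 0.45 ± 0.32 and *Snrpf* of 0.34 ± 0.34, both above total RNA in both IP libraries. *Snrpe* (0.25), *Snrpg* (0.24), *Snrpd2* (−0.10) and *Snrpb* (−0.28) filled the range below. *Snrpb* was the lowest, at 37.6 and 49.4 CPM in IP and 50.8 and 54.4 CPM in total RNA (adjusted p = 0.112), and was the only Sm gene with both IP libraries below both total RNA libraries.

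No *Snrnp* gene was called (0 of 7 by edgeR, against 14.2% of all genes), and 0 had an unadjusted p under 0.05 (against 26.1%). The pairs gave the same sign for 1 of the 7 (14.3%, against 66.5% of all genes). *Snrnp70*, the U1 protein at which SR proteins dock, was at 98.2 and 78.7 CPM in IP and 88.8 and 96.7 CPM in total RNA (−0.08 ± 0.11). *Snrnp200* was at 224 and 252 against 224 and 271 CPM (−0.05 ± 0.10, adjusted p = 0.802). The ends of the family were *Snrnp48*, a protein of the minor spliceosome (−0.50 ± 0.36, adjusted p = 0.401), and *Snrnp25*, of the same particle (0.28 ± 0.30, adjusted p = 0.604). Both had 25 reads in their thinnest library.

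Among 13 *Prpf* genes, 1 was called lower (7.69%, against 7.55% of all genes) and 0 higher (against 6.63%). Their median was 0.05. *Prpf40b*, a WW-domain protein thought to bridge the ends of the intron in early complexes, was at 31.7 and 33.3 CPM in IP and 56.8 and 47.5 CPM in total RNA. IP was far below total RNA in both pairs (−0.84 and −0.51), and the log2 ratio of −0.67 ± 0.13 (adjusted p = 8.23e-06) was the lowest of the 75 genes. *Prpf4*, a protein of the U4/U6 particle, was above total RNA in both IP libraries at 11.1 and 18.5 against 9.35 and 11.01 CPM (0.53 ± 0.22, adjusted p = 0.094). *Prpf8* was at 395 and 517 CPM in IP and 363 and 525 CPM in total RNA. That is a ratio of 0.05 ± 0.10 (adjusted p = 0.812), from at least 1628 reads a library.

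The 8 calls differed in how far they depended on the fit. *Prpf40b* and *Sf3b2* were called in all 10 fits that kept the block, which varied the scaling, filter, depth and test, *Hnrnpd* in 8, *Srsf5* in 7, *Hnrnpu* in 6, *Srsf7* and *Srsf9* in 5, and *Snrpd3* in 4. Scaled by library size alone, 0 members were higher (2.29% of all genes) and 2 lower (7.12%). DESeq2 with the block likewise called 0 higher (1.28%) and 2 lower (3.1%), *Prpf40b* and *Sf3b2*. It gave no adjusted p to 40 of the 75 members and 7653 of the 12336 genes, which are counted here as not called. Limma-voom called 2 higher (5.55%) and 3 lower (7.51%), and thinning to equal totals left 2 (5.57%) and 2 (7%). Median-ratio scaling gave 4 higher (5.84%) and 3 lower (8.07%), no filter 5 (4.24%) and 2 (3.86%), a minimum of 10 counts 5 (8.07%) and 3 (8.51%), and leaving out hosts of small RNAs 5 (6.71%) and 3 (7.58%). At an adjusted p under 0.01 the main test kept 1 higher, *Hnrnpd* (3.66%), and 2 lower (4.88%). With any 1 library left out, fitted without the block, 0 members were called, against 0.0652%, 0.0247%, 0.00762% and 0.023% of all genes lower and 0% higher.

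Gaps between the pairs were narrower at higher depth. For 36 genes no library held under 100 counts, and these had a median gap of 0.216 between the log2 ratios of the pairs, against 0.364 for the other 39. Over all genes the gaps were 0.159 and 0.373. The pairs gave the same sign for 55.6% of the deeper members and 56.4% of the others, against 75.0% and 60.7% of all genes. Of the deeper genes 5 were called (13.9%, against 25.9% of the 5003 genes as deep), and of the others 3 (7.69%, against 6.15%). The widest gaps were those of *Snrpg* (1.21 and −0.56), *Hnrnph3* (0.89 and −0.42), *Snrnp35* (0.73 and −0.41), *Snrnp25* (−0.27 and 0.86) and *Prpf38a* (0.71 and −0.34). Each had a library with under 40 reads, and none of the 5 was called.

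**Figure D4:**
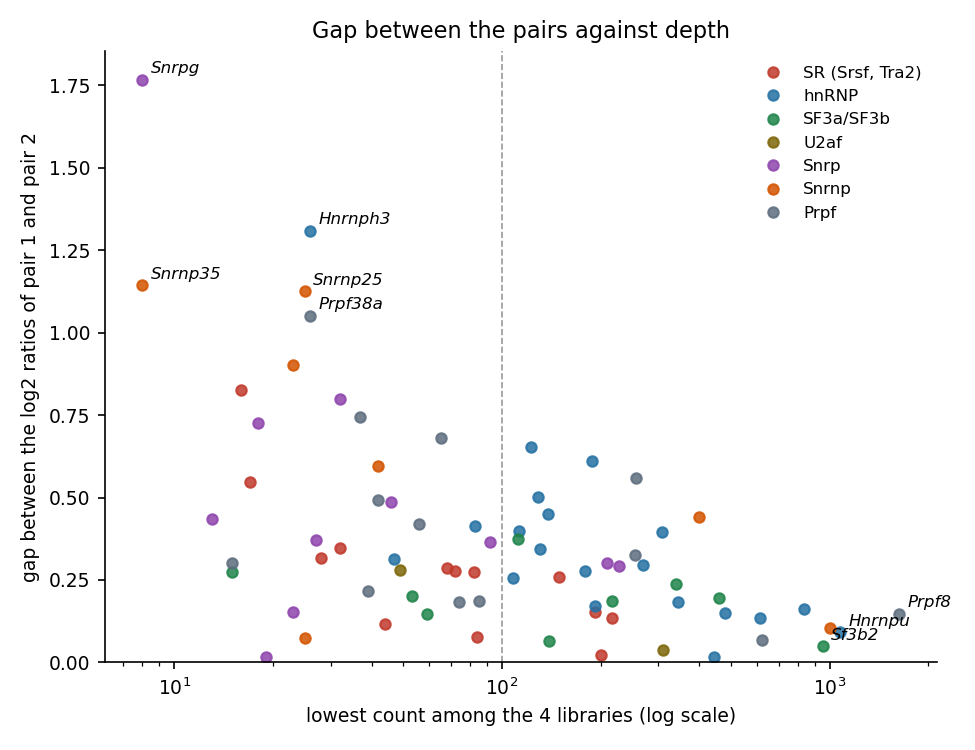
Absolute gap between the log2 ratios of pair 1 and pair 2 for each of 75 genes, against the lowest count among its 4 libraries on a log axis; the dashed line marks 100 counts. Gaps above 1.0 belong to 5 genes, all left of the line, while *Prpf8*, *Hnrnpu* and *Sf3b2* on the right have gaps under 0.2.

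The 2 replicates also differed from each other. In total RNA the members were lower in replicate 1 than in replicate 2, by a median of −0.23 (log2), where the median of all genes was 0.01. In IP the same medians were −0.01 and 0.00. Of the 75 genes, 34 were lower in replicate 1 in both groups (45.3%, against 37.3% of all genes) and 16 higher in both (21.3%, against 38.1%). Astrocyte and microglial markers were higher in replicate 1, as given above, and their part in this difference was not tested. Family medians were above 0 in pair 1 and below 0 in pair 2 in the SR, hnRNP, *Snrp*, *Snrnp* and *Prpf* genes. In fits without the block, the median of the members was −0.13 with total RNA replicate 1 left out and 0.13 with total RNA replicate 2 left out.

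Features that the choice of genes did not use were shared unevenly. At least 1 annotated NMD transcript was found in 36 of the 75 genes (48.0%), against 28.0% of all genes tested. It was 11 of 13 in SR genes and 1 of 9 in SF3 genes. A retained-intron transcript was annotated in 55 (73.3%, against 58.5%). The counts do not separate such transcripts from the coding ones. Members with an NMD transcript had a median log2 ratio of 0.02 and those without one 0.06, and neither difference in medians nor in calls was tested. Of members with one, 6 were called (16.7%), and of those without one 2 (5.13%), where the shares over all genes were 13.8% and 14.3%.

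GC content was lower in the members than in all genes, with medians of 47.3% and 50.5%. Over the 75 genes the log2 ratio fell with GC content (Spearman's rho = −0.33; −0.33 in pair 1 and −0.22 in pair 2), much as over all genes with a GC value (−0.32, n = 12328). These correlations run across genes that share the same libraries and are descriptions only. Below 45% GC the median ratio was 0.11 for 28 members and 0.16 for all genes, and above 55% it was −0.20 for 9 members and −0.15 for all genes. *Prpf40b*, at 58.2% GC, lay at the GC-rich end, and *Hnrnpu*, at 42.2%, lay below its band. When an offset for GC content and length was fitted together with the block, 1 member stayed higher, *Hnrnpd* (1.33%, against 4.64% of all genes). Under that offset 5 were lower (6.67%, against 2.45%), namely *Hnrnpu*, *Hnrnpdl*, *Srsf2*, *Prpf40b* and *Sf3b2*, and the median of the members moved to −0.04. The ratio of *Prpf40b* became −0.42, of *Srsf5* 0.21 and of *Srsf9* 0.35.

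**Figure D5:**
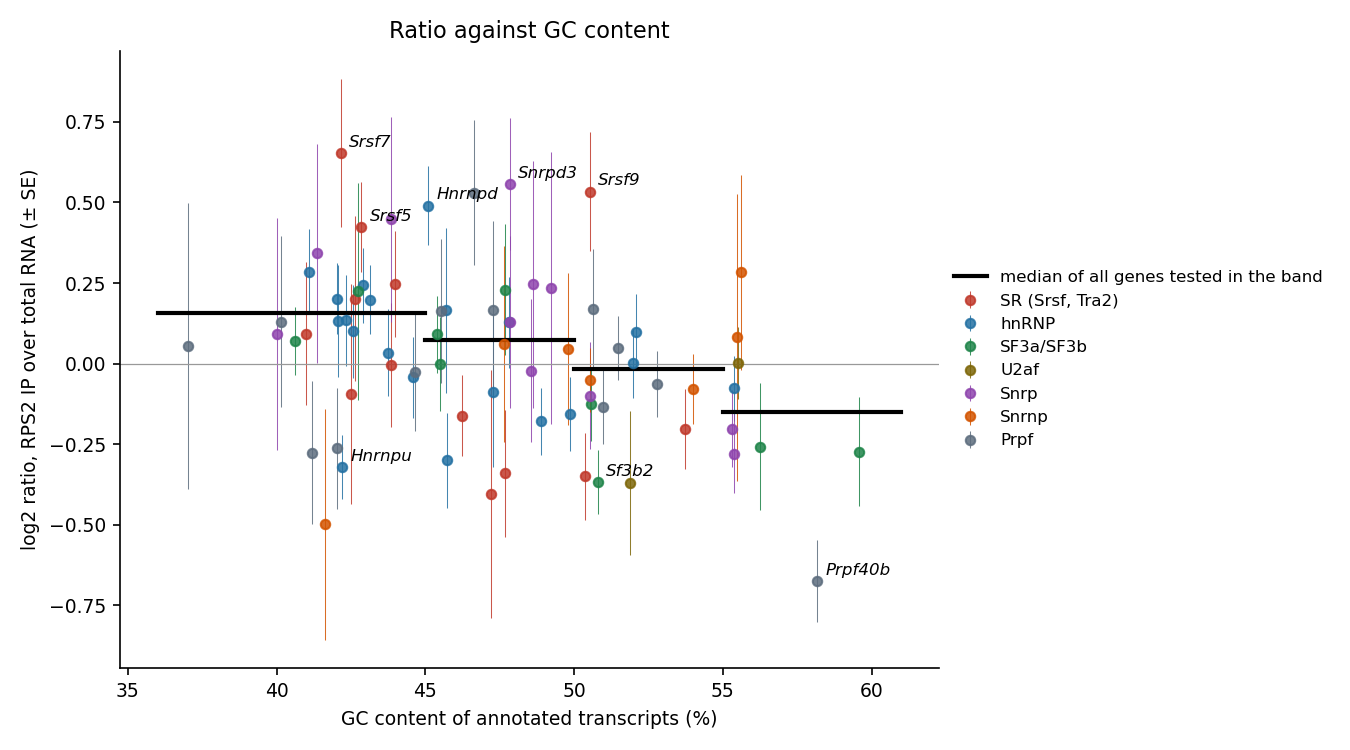
Log2 ratio of RPS2 IP to total RNA (± SE) for 75 splicing factor genes against the GC content of their annotated transcripts, coloured by family, with the 8 genes called named. Black lines are medians of all genes tested in 4 GC bands and fall from 0.16 below 45% to −0.15 above 55%.

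Other genes were taken from a list of 148, mostly for splicing regulators and spliceosome proteins, and 143 of them were tested. In IP 2 were higher (1.4%, against the 6.63% background) and 17 lower (11.9%, against 7.55%), with a median log2 ratio of −0.01. Both higher genes had groups that did not overlap. *Lsm1*, of the cytoplasmic ring that promotes mRNA decapping rather than splicing, was at 4.91 and 6.38 CPM in IP and 2.45 and 2.63 CPM in total RNA (1.15 ± 0.40, adjusted p = 0.026). Its total RNA values came from 11 and 16 reads. *Tardbp*, which encodes TDP-43, was at 27.7 and 36.2 against 20.5 and 23.5 CPM (0.54 ± 0.15, adjusted p = 0.0061), or 0.32 with IP replicate 2 left out and no block.

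Roles within the list were assigned after values were seen, so their counts are descriptions. SR-related proteins carry arginine-serine stretches but mostly lack the SR family's domain order. Of 21 genes for them, 9 were lower (42.9%, against the 7.55% background) and 0 higher. Their median was −0.28 (−0.17 in pair 1 and −0.38 in pair 2). The 7.55% covers genes of all depths. Where no library held under 100 counts, 16.6% of all genes were lower, against 1.39% of the remaining genes. Most of the 21 were that deep, so 16.6% is the closer background for them. Their share was not tested at like depth. *Scaf1*, which binds the tail of RNA polymerase II, was at 227 and 174 CPM in IP and 371 and 314 CPM in total RNA (−0.78 ± 0.10, adjusted p = 9.91e-13). *Srrm1*, a coactivator that bridges SR proteins, was at 43.9 and 29.4 against 61.5 and 47.8 CPM (−0.59 ± 0.12, adjusted p = 8.99e-05). *Rbm25* was at 16.3 and 15.5 against 20.5 and 25.6 CPM (−0.54 ± 0.17, adjusted p = 0.019). In all 3 both IP values lay below both total RNA values. In fits without the block, *Srrm1* was at −0.38 without total RNA replicate 1, −0.90 without IP replicate 1 and −0.32 without IP replicate 2. *Rbm25* was at −0.33 in pair 1. *Scaf1* was at −0.39 under the GC and length offset. With the GC and length offset 5 of the 21 were lower, where 2.45% of all genes were. The median of the 21 was then −0.15, against 0.02 over all genes.

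Outside that group, *Sfpq*, a paraspeckle protein, was at 81.6 and 52.0 CPM in IP and 125 and 80.1 CPM in total RNA (−0.62 ± 0.11, adjusted p = 1.77e-06), overlapping between groups but alike in the pairs (−0.61 and −0.62). In fits without the block its ratio was −0.26 without total RNA replicate 1, −0.98 without IP replicate 1 and −0.33 without IP replicate 2. *Elavl4*, a neuronal RNA-binding protein, was at 36.3 and 30.3 against 43.6 and 52.6 CPM (−0.54 ± 0.13, adjusted p = 0.00076), with −0.26 in pair 1 and −0.79 in pair 2. Of 21 LSm, Sm and tri-snRNP genes 1 was higher (4.76%) and 0 lower (median 0.18). Of 44 RNA-binding regulators 1 was higher (2.27%) and 4 lower (9.09%, median 0.01). Over all genes 6.63% were higher and 7.55% lower.

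Near-identical copies limited the values of some members. More than 20% of the 50-base windows of *Sf3b4* (43.6%), *Hnrnpf* (43.2%), *Hnrnpa1* (28.2%), *Hnrnpa3* (26.9%), *U2af1* (21.7%) and *Snrpf* (21.3%) also lie in transcripts of genes elsewhere. Their levels are therefore uncertain. So are, to a smaller degree, those of 8 members with 10% to 20%, among them *Hnrnph2* (15.9%), *U2af2* (14.7%), *Hnrnpk* (14.5%), *Snrpg* (11.6%), *Snrpa* (11.2%), *Srsf10* (10.3%) and *Srsf5* (10.1%). *Hnrnpm* shares 24.9% of its exonic bases with another gene on the same strand. The 7 genes called other than *Srsf5* had 0.63% or less of their windows elsewhere.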

How the data were processed

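The authors deposited raw counts of reads by gene, made with featureCounts 1.5.3 (stranded) on mm10 and the cellranger-mm10 3.0.0 annotation, after trimming with cutadapt and alignment with STAR keeping up to 10 loci. Reads at several loci or in several genes were not counted, and PCR duplicates were not stated to be removed, which leaves intervals for counting error only. The files also give exonic lengths.

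Symbols came from GENCODE M21. Members and lists were chosen with earlier results of these data known. Genes kept by filterByExpr were scaled by TMM in edgeR 4.0.16 (R 4.3.3), and the groups were compared by the two-sided quasi-likelihood test with the replicate number as a block (1 residual degree of freedom) and Benjamini-Hochberg adjustment over 12336 genes at 0.05. A call is an adjusted p under 0.05. The labels do not say that a number marks a culture. Total RNA was taken from the samples before the pulldown, and same-numbered libraries deviated together (r = 0.73). The biological coefficient of variation was 7.93% with the block and 29.7% without it. The prior degrees of freedom were infinite with the block, so each gene took the shared spread. The 2 libraries of each group differed by more than counting noise. CPM are counts scaled to the effective library size, and pair ratios are differences of log2 CPM with a prior count of 2. GC content was known for 12328 genes. In simulated data the fit with the block recovered 43 of 100 genes changed 1.5-fold and 71 of 100 changed 2-fold, with 6 false calls. The fit without the block recovered 0 of 100 at either size, with 0 false calls. The simulated counts were drawn with the shared spread of the fit, so they cannot test that sharing.

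Named genes were the members called, the highest and lowest ratio and the highest level per length of each family, members holding a small RNA in counted exons (at least 50% of its bases), and the 5 lowest and all higher genes of the other list. Further members are given by role and were picked after their values were seen. Alternatives were library size or median-ratio scaling, no filter or at least 10 counts, a GC and length offset, thinning, leaving out small RNA hosts, DESeq2 1.42.0, limma-voom (limma 3.58.1) and each library left out. Protein sequences and genome-wide windows were not analysed here, and 50-base windows were compared with annotated transcripts. A single *Prpf* gene is counted but not reported here by name.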

Additional observations from a re-analysis of the deposited data

How the results depend on the processing

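With 2 libraries a group, the replicate block decides the calls. Without the replicate block, 0 members and 0 of the other splicing genes were called in either direction, and leaving out any 1 library, fitted without the block and with the lone library taken to vary like the other group, gave 0 to 0 for all 4 counts. The cause of the other changes below was not tested.

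Members called higher numbered 0 by library size, 1 with the GC and length offset, 2 after thinning, 0 by DESeq2, 2 by limma-voom and 1 at an adjusted p under 0.01. Members called lower were 5 with the offset. Other splicing genes called higher were 0 by library size, 0 with the offset, 1 after thinning, 0 by DESeq2 and 1 at 0.01, and those called lower were 10 with the offset, 5 by DESeq2 and 11 at 0.01. In the same order, the shares of all genes called higher were 2.29%, 4.64%, 5.57%, 1.28% and 3.66%. Those called lower were 2.45%, 3.1% and 4.88% of all genes. DESeq2 gave no adjusted p to 7653 genes, 40 of them members. The SF3 median was −0.085 by library size, −0.106 with the offset and −0.068 without small RNA hosts. The U2AF median was 0.024 with no filter on low counts, and the *Prpf* median −0.090 with the offset.

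Leaving out 1 library moved the median of the members from −0.130 to 0.132, of SR genes from −0.139 to 0.255, hnRNP from −0.063 to 0.132, SF3 from −0.141 to 0.092 (−0.073 without total RNA replicate 1), U2AF from −0.356 to 0.0064 (−0.302 without IP replicate 2), *Snrp* from −0.165 to 0.237, *Snrnp* from −0.129 to 0.088 and *Prpf* from −0.205 to 0.119 (−0.108 without IP replicate 2). Within single pairs the medians ran from −0.032 to 0.0013 for SF3, −0.296 to 0.0026 for *Snrnp* and −0.082 to 0.073 for *Prpf*.

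Signs turned for genes near 0. *Hnrnpa3* was −0.081 and *Snrnp200* 0.030 with the offset, and *Prpf8* was −0.034 by library size. *U2af2* was −0.083 by library size, −0.017 with median-ratio factors, −0.072 thinned, −0.0026 without small RNA hosts, −0.017 by DESeq2 and −0.00041 by limma-voom. With total RNA replicate 1 left out, *Hnrnpa0* was 0.142, *Hnrnpa3* −0.090, *Prpf8* −0.205, *Sf3b3* −0.0084 and *U2af2* −0.080. With IP replicate 2 left out, *Hnrnpa0* was 0.035, *Prpf8* −0.174 and *U2af2* −0.070. IP replicate 1 turned *Snrnp200* (0.025) and *Srsf12* (0.064), and total RNA replicate 2 turned *Snrnp200* (0.088) and *Snrnp25* (−0.151). The full ranges were −0.285 to 0.142 for *Hnrnpa0*, −0.090 to 0.316 for *Hnrnpa3*, −0.205 to 0.329 for *Prpf8*, −0.0084 to 0.196 for *Sf3b3*, −0.185 to 0.088 for *Snrnp200*, −0.151 to 0.772 for *Snrnp25*, −1.05 to 0.064 for *Srsf12* and −0.080 to 0.084 for *U2af2*. Each of the other genes chosen by the naming rule above kept its direction in every fit. Among these, *Hnrnpu* ran from −0.627 to −0.056, *Snrpd3* from 0.042 to 1.27 and *Srsf7* from 0.224 to 1.22. Further members, given by role, are not covered by this.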
